A study of Mus musculus with 4 samples.

Results

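Sprouting endothelial cells are the blood vessel lining cells that lead new vessel branches. Here they were taken as the cells that passed a quality filter (at least 200 genes and at most 20% mitochondrial RNA) and held at least 3 UMIs (unique molecular identifiers, 1 per captured RNA molecule) of the endothelial genes Pecam1, Cdh5, Tie1 and Egfl7 together. They also held no UMI of the leukocyte gene Ptprc, fewer than 2 of the lymphatic genes Prox1, Mmrn1 and Flt4, and at least 1 of the sprouting genes Apln, Esm1 and Angpt2. Their UMIs of the venous and activation genes Ackr1, Selp and Sele were fewer than those of the 3 sprouting genes. The members were thus selected on their UMIs of these 14 genes, and their values of those genes are given as a description. The rule found 445 cells among the 63443 cells that passed the quality filter: 67 in the anti-PD-1 library, 159 in anti-LIF, 174 in combo and 45 in control. The other blood endothelial cells numbered 1840. Of these, 612 had venous UMIs at or above their sprouting UMIs and are called venous and activated here, and 1228 had neither. A further 191 cells were lymphatic, which makes 2476 endothelial cells in all.

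The cells came from tumours of Pan02, a mouse pancreatic cancer line, grown under the skin of female C57BL/6 mice aged 6 to 7 weeks. Dissociated single cells were captured and their RNA counted from its 3′ ends (SeekOne MM kit). Treatment began at a tumour size of about 50 mm3. Per the labels the 4 groups received anti-PD-1, anti-LIF, both antibodies (combo) or IgG (control). Anti-PD-1 is an antibody against the checkpoint receptor of T cells, and anti-LIF one against the cytokine LIF. Doses were 200 µg anti-PD-1 and 25 mg/kg of IgG or anti-LIF, 3 times a week. The dose of 25 mg/kg of IgG or anti-LIF is listed for all 4 groups, the anti-PD-1 group included. Each group was 1 library in which 3 samples had been combined, so animals could not be told apart and no difference between treatments was tested. The tumours grew outside the pancreas. The labels name Pan02 cancer cells as the cell type, while the endothelial cells belong to the host.

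New vessels grow from existing ones when VEGF, sensed by the receptor Kdr, selects a leading tip cell. The tip cell presents the Notch ligand Dll4 to its neighbours, which then follow as stalk cells, and it opens and rebuilds the basement membrane as it moves. Apln, the peptide ligand of the receptor Aplnr, Esm1, a secreted proteoglycan, and Angpt2, a ligand of the receptor Tek that loosens resting vessels, are widely used marks of such cells in tumours.

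The sprouting gene Apln lies on chromosome X at 48025146 to 48034853 (minus strand, GRCm38 with GENCODE M21), Esm1 on chromosome 13 at 113209659 to 113218098 (plus strand) and Angpt2 on chromosome 8 at 18690263 to 18741562 (minus strand). Kdr lies on chromosome 5 at 75932827 to 75978458 (minus strand), and Prnd, the gene that most set the cells apart beyond the rule, on chromosome 2 at 131950861 to 131956130 (plus strand). The promoter windows of 4 of these genes are shown because hypoxia is a known inducer of sprouting genes. Each is 300 bases around the gene's start (RefSeq, GRCm38.p6), read 5′ to 3′ along the gene's strand, at chrX:48034804-48035103 for Apln, chr13:113209409-113209708 for Esm1, chr5:75978406-75978705 for Kdr and chr2:131950611-131950910 for Prnd. Capitals mark ACGTG or GCGTG on either strand, the core that hypoxia-inducible factors bind.
Apln: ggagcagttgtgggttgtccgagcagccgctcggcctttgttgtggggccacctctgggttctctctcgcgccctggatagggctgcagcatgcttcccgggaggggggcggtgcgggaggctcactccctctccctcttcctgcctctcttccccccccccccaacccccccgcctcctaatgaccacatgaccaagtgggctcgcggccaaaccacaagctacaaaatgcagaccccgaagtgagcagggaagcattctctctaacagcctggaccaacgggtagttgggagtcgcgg
Esm1: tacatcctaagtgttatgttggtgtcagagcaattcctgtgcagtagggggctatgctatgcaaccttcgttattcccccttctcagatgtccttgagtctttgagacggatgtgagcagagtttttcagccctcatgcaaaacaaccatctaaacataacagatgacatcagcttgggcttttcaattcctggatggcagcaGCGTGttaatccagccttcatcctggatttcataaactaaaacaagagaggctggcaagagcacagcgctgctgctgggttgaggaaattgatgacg
Kdr: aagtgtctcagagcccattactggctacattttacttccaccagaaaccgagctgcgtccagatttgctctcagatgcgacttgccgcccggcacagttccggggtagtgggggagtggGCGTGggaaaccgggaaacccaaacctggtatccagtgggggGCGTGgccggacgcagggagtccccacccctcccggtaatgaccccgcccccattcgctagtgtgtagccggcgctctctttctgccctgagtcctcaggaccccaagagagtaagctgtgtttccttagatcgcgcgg
Prnd: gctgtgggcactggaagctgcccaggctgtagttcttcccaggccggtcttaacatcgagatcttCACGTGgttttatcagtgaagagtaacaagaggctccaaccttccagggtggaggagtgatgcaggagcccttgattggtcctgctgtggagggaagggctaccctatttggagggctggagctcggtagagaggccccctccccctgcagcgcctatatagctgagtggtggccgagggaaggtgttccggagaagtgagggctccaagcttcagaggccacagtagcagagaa
The Apln window held no match, Esm1 held 1, at base 204, and Kdr held 2, at bases 120 and 162. In Prnd a match on each strand overlapped at bases 66 and 67. A second Prnd window of the table, at chr2:131950787-131951086, held no match. Of 16 genes sought, 14 had a window and 9 of them a match in any of their windows, and Angpt2 and Nid2 were not matched. The core is common: 43.8% of all 32851 windows held one, 19.6% for ACGTG and 32.4% for GCGTG. These shares count single windows and not genes, of which some have several windows.

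The sprouting cells held 225667 UMIs in the anti-PD-1 library, 462783 in anti-LIF, 799704 in combo and 204819 in control, with medians of 2143, 1784, 2751.5 and 2909 UMIs per cell in that order of libraries. Their median mitochondrial share lay between 7.18% and 8.76%. A few deep cells weighed heavily: the 10 deepest sprouting cells held 42.8% of the UMIs in anti-PD-1, 24.6% in anti-LIF, 27.0% in combo and 52.4% in control. At least 2 UMIs of marker genes of other cell classes (T cell, macrophage, neutrophil, B cell, fibroblast, pericyte, cancer cell, muscle or red cell) were present in 64.2% of sprouting cells in anti-PD-1, 61.0% in anti-LIF, 83.3% in combo and 42.2% in control. Of all deposited barcodes, 1911 occurred in 2 or more libraries, and 26 sprouting cells carried such a barcode. At the edge of the rule, 200 members held exactly 1 sprouting UMI and 245 held 2 or more, and 29 members held exactly 3 endothelial UMIs. Outside it, 38 otherwise fitting cells held exactly 2 endothelial UMIs, 25 held Ptprc, 33 had venous UMIs equal to their sprouting UMIs, and 32 had exactly 2 lymphatic UMIs.

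Kdr is a mark of sprouting cells that the rule did not use. It was detected in 73.1% [60.9, 83.2] of sprouting cells in anti-PD-1, 63.5% [55.5, 71.0] in anti-LIF, 73.0% [65.7, 79.4] in combo and 82.2% [67.9, 92.0] in control. In T cells of the same libraries, which should lack it and had median depths of 1722.5, 1650, 1921 and 2079 UMIs, it was detected in 0.107%, 0.769%, 0.611% and 0.0836%. Brackets throughout are exact 95% intervals that cover counting error only. The Kdr level, in counts per 1000000 UMIs of the cells (CPM), was 722 in anti-PD-1, 601 in anti-LIF, 650 in combo and 776 in control sprouting cells, against 615, 646, 588 and 485 CPM in other blood endothelial cells of these libraries. Kdr was higher in sprouting cells in 3 of 4 libraries and lower in anti-LIF, and in the class comparison described further on the log2 fold change of 0.21 (SE 0.13, edgeR adjusted p = 0.51) did not pass the test. The label sprouting rests on Apln, Esm1 and Angpt2, the genes of the rule, and not on Kdr. The genes described below were compared in cells that the rule had split, so they are not separate support for the label.

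Most members held only 1 of the 3 sprouting genes. The 200 members with exactly 1 sprouting UMI could not hold more, so the rule itself limits the overlap. Each member also had to hold at least 1 of the 3, so their shares among members are tied together. Among the 445 members, 119 (26.7%) held Apln alone, 127 (28.5%) Esm1 alone and 83 (18.7%) Angpt2 alone. A further 96 (21.6%) held 2 of the 3 and 20 (4.49%) held all 3. Depth moved with this count: members with all 3 genes had a median of 6703 UMIs, those with 2 of them 3701.5, and those with 1 between 1766 and 2168, and its part in the pattern was not tested. Apln was detected in 37.3% [25.8, 50.0] of members in anti-PD-1, 57.2% [49.2, 65.0] in anti-LIF, 46.0% [38.4, 53.7] in combo and 26.7% [14.6, 41.9] in control. Esm1 had the opposite order, with 49.3% [36.8, 61.8] in anti-PD-1, 43.4% [35.6, 51.5] in anti-LIF, 44.3% [36.7, 52.0] in combo and 71.1% [55.7, 83.6] in control. Angpt2 was detected in 41.8% [29.8, 54.5], 26.4% [19.7, 34.0], 42.5% [35.1, 50.2] and 40.0% [25.7, 55.7] of members in these libraries. Members with Esm1 alone thus made up 46.7% of the control members and 25.2% to 31.3% of the members in each treated library, while those with Apln alone made up 8.89% in control and 22.4% to 36.5% elsewhere. In T cells Apln was detected in at most 0.733% of cells, Esm1 in at most 1.56% and Angpt2 in at most 0.111%. The levels can hang on 1 cell: 39 of the 67 Apln UMIs of control members came from 1 cell, as did 104 of the 430 in combo. Endothelial cells as a whole held 38.3% to 45% of all Apln UMIs of a library, 37.2% to 59.4% of Esm1 and 66.0% to 74.3% of Angpt2.

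Members that held different sprouting genes also differed in other genes that the rule did not use. Summed over the libraries, Dll4 was at 598 CPM [527, 675] in members with Esm1 alone, against 195 [152, 248] with Apln alone, 263 [203, 336] with Angpt2 alone and 289 [268, 311] in cells with neither sprouting nor venous UMIs. Unc5b, a netrin receptor of tip cells, was at 239 CPM [195, 289] with Esm1 alone, 37.3 [19.9, 63.9] with Apln alone and 32.9 [14.2, 64.8] with Angpt2 alone, against 65.3 [55.6, 76.1] in cells with neither. The same members were highest in Igfbp3, a secreted binder of insulin-like growth factors, with 2333 CPM [2191, 2481] for Esm1 alone, 945 [846, 1053] for Apln alone and 526 [439, 626] for Angpt2 alone, against 790 [755, 826]. Kdr followed this order too, at 850 CPM [765, 942] with Esm1 alone, 615 [535, 703] with Apln alone and 448 [368, 540] with Angpt2 alone, against 638 [607, 670]. In these sums the apelin receptor gene Aplnr was instead highest with Apln alone, at 379 CPM [317, 450], and was at 116 [86.0, 153] with Esm1 alone and 177 [128, 238] with Angpt2 alone, against 242 [223, 262]. Fabp4, a fatty acid binding protein of capillaries, was at 1668 CPM [1548, 1794] with Esm1 alone, 4679 [4455, 4912] with Apln alone and 6589 [6270, 6920] with Angpt2 alone, against 10657 [10530, 10786]. The chemokine receptor gene Cxcr4 was lowest with Apln alone, at 60.3 CPM [37.3, 92.2], and was at 225 [182, 274] with Esm1 alone and 185 [135, 248] with Angpt2 alone. These are sums over cells of 4 libraries that differ in their mix of the 3 patterns, and no test over libraries was made of them. Among the 3 patterns Dll4, Igfbp3, Unc5b and Kdr were highest with Esm1 alone in each of the 4 libraries. Fabp4 was lowest there in each, by a small margin over Apln alone in anti-PD-1 (2504 against 2560 CPM) and control (322 against 337 CPM), and Cxcr4 was lowest with Apln alone in each. Aplnr was highest with Apln alone in the 3 treated libraries, while in control it was at 84.2 CPM with Apln alone and 149.7 with Angpt2 alone, from 1 and 4 UMIs.

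**Figure D1:**
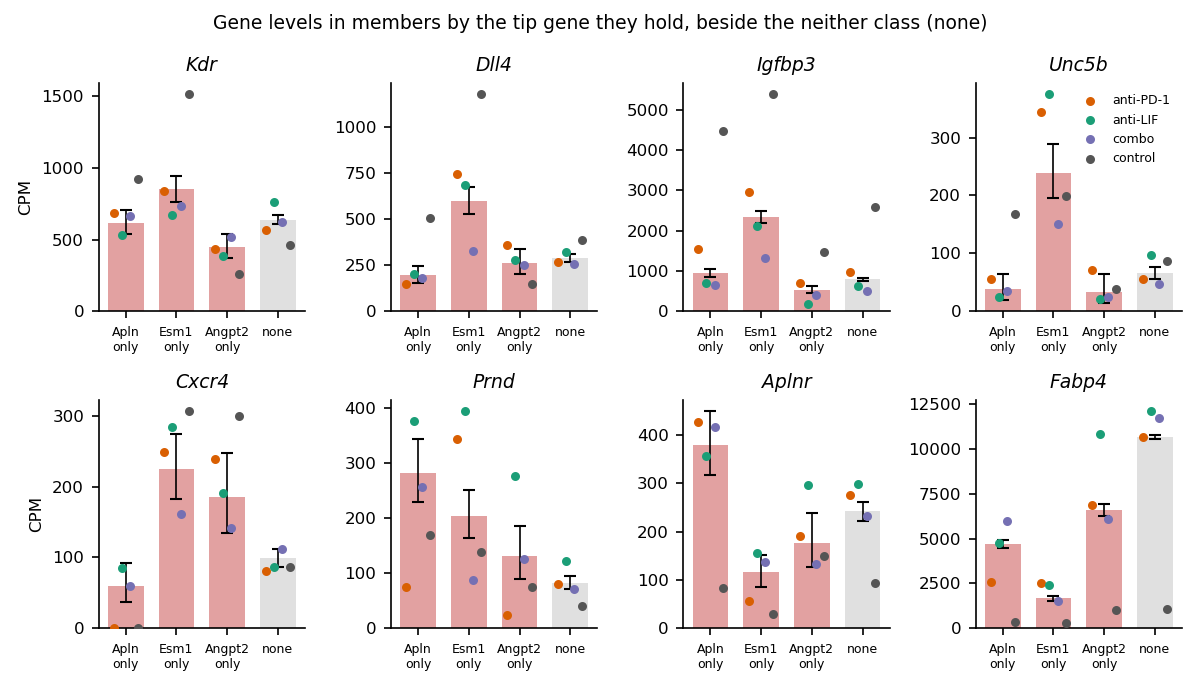
Levels of 8 genes (vertical axes, CPM) in sprouting cells that hold only Apln, only Esm1 or only Angpt2 (red bars) and in blood endothelial cells with neither sprouting nor venous UMIs (grey bars, none); bars are sums over the 4 libraries with exact Poisson 95% intervals and points are single libraries. Dll4, Igfbp3 and Unc5b stand highest in the bar for Esm1 alone, at 598, 2333 and 239 CPM, and Fabp4 stands lowest there, at 1668 CPM.

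Levels also moved with the number of sprouting UMIs in a cell, a count that the rule itself used. Median depth was 1175 to 1721 UMIs in cells with neither sprouting nor venous UMIs, against 1784 to 2909 in members, by library. The part of depth in these levels was not tested. Prnd, which encodes the prion-like protein doppel, was at 447 CPM [410, 487] in members with 2 or more sprouting UMIs and 161 [129, 199] in members with 1, against 82.9 [72.0, 95] in cells with neither sprouting nor venous UMIs. Igfbp3 was at 1741, 1165 and 790 CPM in the same order, and Dll4 at 462, 354 and 289 CPM. Fabp4 ran the other way, at 2399, 5582 and 10657 CPM. In these sums cells with 1 sprouting UMI lay between the other 2 sets in all 4 genes, and Kdr did not follow this order, at 690, 599 and 638 CPM. Within the libraries Dll4 and Fabp4 kept the order in 4 of 4. Prnd did not in anti-PD-1 (60.6 CPM with 1 sprouting UMI against 80.4 with neither) or in control (141 with 2 or more against 143 with 1), nor Igfbp3 in anti-LIF (506 with 1 against 633 with neither).

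Sprouting cells were then compared with the other blood endothelial cells of the same libraries, with UMIs summed per class and library (8 sums) and the library as a block in edgeR's quasi-likelihood test. This asks for a shift between the 2 classes averaged over the 4 libraries, and a called gene need not differ in each of them. Libraries are the replicates, each of 3 combined samples under a treatment of its own, so the p-values measure the spread between these 4 libraries. Of 6468 genes tested, 101 (1.56%) were higher and 214 (3.31%) lower in sprouting cells at an adjusted p under 0.05, 4.87% in either direction, and 1002 had an unadjusted p under 0.05. The rule chose the cells on 14 genes in these same libraries, so genes that go with them across cells can follow it. The rule itself sets the sprouting and the venous genes apart between the classes, while the endothelial genes were asked of both. All genes of the rule are left aside. Without them 98 (1.52%) were higher and 212 (3.28%) lower of 6458, 4.8% in either direction. The counts hang on single libraries: without anti-PD-1 they were 48 higher and 102 lower, without anti-LIF 68 and 127, without combo 45 and 83, and without control 174 and 320. Every one of the 315 called genes that could still be tested kept its direction in these 4 fits. In the comparison with venous and activated cells alone 197 were higher and 315 lower, and with cells of neither kind alone 52 and 96.

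Prnd led the genes that were higher in sprouting cells, by a log2 fold change of 2.44 (SE 0.15, edgeR adjusted p = 5.58e-09, higher in 4 of 4 libraries). It was at 257, 521, 348 and 142 CPM in sprouting cells of the anti-PD-1, anti-LIF, combo and control libraries, against 53.6, 95.1, 54.8 and 33.4 CPM in other blood endothelial cells. The 4 sprouting values all lay above the 4 others. Unc5b, at 160, 160, 75.0 and 161 CPM in the same order of libraries, against 32.2, 58.6, 31.7 and 58.9, had a log2 fold change of 1.51 (SE 0.18, edgeR adjusted p = 6.63e-05). Cxcr4, the receptor of the chemokine Cxcl12, stood at 155, 210, 179 and 420 CPM against 67.9, 61.6, 111 and 88.3 (log2 fold change 1.39, SE 0.20, edgeR adjusted p = 0.000294). In both genes the classes did not overlap. Nid2, a nidogen of the basement membrane, was at 607, 503, 450 and 649 CPM in sprouting cells against 293, 243, 157 and 245 (log2 fold change 1.24, SE 0.13, edgeR adjusted p = 1.65e-05). Igfbp3 was higher in each library, at 1777, 1255, 1023 and 4121 CPM against 760, 440, 432 and 1552 (log2 fold change 1.33, SE 0.11, edgeR adjusted p = 5.45e-07), yet the control value of the other cells lay above the anti-LIF and combo values of the sprouting cells.

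The other genes of the 12 named for their size were higher by log2 fold changes of 1.16 to 1.49 and in 4 of 4 libraries. They were Mest, an imprinted gene of the hydrolase fold (1.49, SE 0.20), Dbn1, the actin-binding drebrin (1.44, SE 0.27), Cd276, the checkpoint protein B7-H3 (1.37, SE 0.17), Ube2c, a ubiquitin enzyme of mitosis (1.36, SE 0.19), Chst1, a sulfotransferase (1.24, SE 0.16), and Nes, the intermediate filament nestin (1.16, SE 0.17). Their edgeR adjusted p ran from 0.000107 for Cd276 to 0.0034 for Dbn1, and none of these 6 lost the call when 1 library was left out. Against cells of neither kind alone Mest, Cd276, Ube2c and Chst1 were called. Dbn1 (1.07, edgeR adjusted p = 0.063) and Nes (0.49, edgeR adjusted p = 0.21) were not. Cd276 was at 93.1, 97.2, 105 and 166 CPM in sprouting cells of the anti-PD-1, anti-LIF, combo and control libraries, against 39.3, 38.0, 41.5 and 53.0 CPM in the others. Acta2, the smooth muscle actin gene, was also named (log2 fold change 1.24, SE 0.21, edgeR adjusted p = 0.00124), but 178 of its 192 UMIs in control sprouting cells came from 1 cell. Its classes overlapped and its call was lost without the anti-PD-1 library (edgeR adjusted p = 0.0586) and in cells thinned to 1000 UMIs (0.585).

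**Figure D2:**
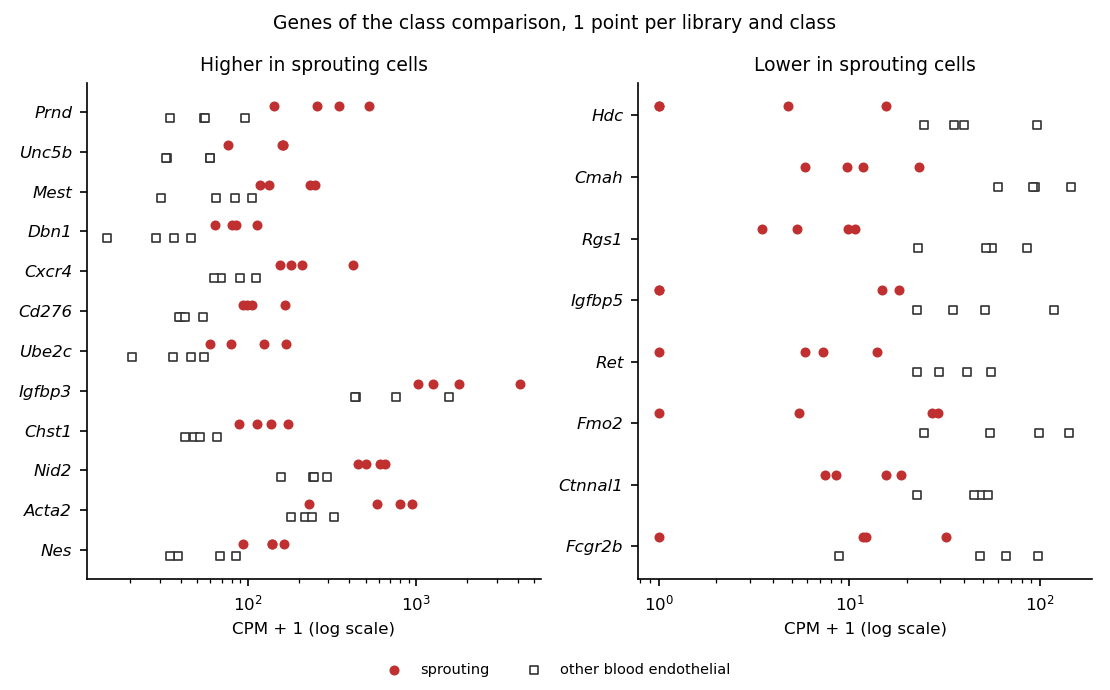
The 12 highest and 8 lowest genes of the class comparison, with the level in each library (CPM + 1, log axis) in sprouting cells (filled red circles) and in other blood endothelial cells (open squares). In Prnd all 4 sprouting values, 142 to 521 CPM, stand above the other values, 33.4 to 95.1 CPM, while Igfbp3, Acta2, Fmo2 and Fcgr2b overlap between the classes.

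Known genes of sprouting tip cells were higher in sprouting cells. Of 28 listed genes tested, 16 were higher and none lower, with a median log2 fold change of 0.50 against 0.01 over all genes, where 1.52% were called higher. Beside those above, Dll4 was at 465, 413, 323 and 835 CPM in sprouting cells of the anti-PD-1, anti-LIF, combo and control libraries, against 240, 232, 208 and 259 CPM in the other cells (log2 fold change 0.99, SE 0.15, edgeR adjusted p = 0.00059). Mcam, an adhesion molecule, was higher by 0.76 (SE 0.12), Lxn, a carboxypeptidase inhibitor, by 0.96 (SE 0.14), Fscn1, the actin bundler fascin, by 0.93 (SE 0.15), and Trp53i11 by 0.97 (SE 0.15). These genes kept the call without any 1 library. Pdgfb, the growth factor that recruits pericytes, was higher by 0.70 (SE 0.13) and lost its call without anti-PD-1, as did Inhbb, an activin subunit (0.90, SE 0.17). Nrp1 (-0.05, SE 0.13) and Adm (0.32, SE 0.27) did not pass the test. Without the anti-PD-1 library 10 of the list were called higher, and in the comparison with cells of neither kind 11 were.

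Genes of the vessel's basement membrane were next in number, with 9 of 21 higher, none lower and a median of 0.45. Nid2, Col4a1, Col4a2 and Sparc were called in both this list and that of tip cells. Lama4, a laminin chain of vessels, was at 315, 391, 330 and 439 CPM in sprouting cells of the anti-PD-1, anti-LIF, combo and control libraries, against 207, 244, 180 and 177 CPM in the others (log2 fold change 0.84, SE 0.14, edgeR adjusted p = 0.00088). The collagen IV chain Col4a1 was among the most abundant of them, at 6762, 6919, 5842 and 6620 CPM against 4813, 5537, 4054 and 3894 (0.51, SE 0.09). Col4a2, Lamb1, Lamc1, Col18a1, Sparc and the collagen chaperone Serpinh1 were higher by 0.45 to 0.62. Only 3 of the list were called without the anti-PD-1 library, and 3 without combo. Nid2 and Lama4 were among the genes that kept the call in both. Against cells of neither kind alone 4 of 20 were higher, and Lama4 was not called (0.56, edgeR adjusted p = 0.080). Of 13 genes of proteolysis, Mmp14, the membrane-bound matrix metalloproteinase of invading cells, was higher by 0.74 (SE 0.13) and 12 did not pass. Mmp14 was not called against cells of neither kind alone (0.51, edgeR adjusted p = 0.23). Among 17 guidance and integrin genes, Unc5b and Itgb3, the integrin chain of the vitronectin receptor (1.16, SE 0.21, edgeR adjusted p = 0.0024), were higher and 15 did not pass, Efnb2 (0.45, SE 0.17) and Plxnd1 (0.10, SE 0.23) included.

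In the Notch pathway 4 of 12 genes were higher and 1 lower, with a median of 0.18. Beside Dll4 these were the receptor Notch4 (0.67, SE 0.14), at 368, 268, 279 and 381 CPM in sprouting cells of the anti-PD-1, anti-LIF, combo and control libraries, against 202, 211, 197 and 163 CPM in the others, and the targets Nrarp (0.90, SE 0.17) and Hey1 (0.81, SE 0.20). Without the anti-PD-1 library Dll4 alone of these kept the call. The ligand Dll1 was lower, at 13.3, 15.1, 13.8 and 9.76 CPM against 39.3, 66.2, 46.4 and 39.3 (-1.88, SE 0.28, edgeR adjusted p = 0.0004). The ligand Jag1 (-0.07, SE 0.21) and the receptor Notch1 (-0.12, SE 0.16) did not pass. Against cells of neither kind alone, where Dll1 could not be tested, none of 11 genes of the list was called in either direction. The counts without 1 library were 1 higher and 1 lower without anti-PD-1, and 3 or 4 higher and 1 lower in the other fits.

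Ligands and receptors of the apelin and angiopoietin axes split. Apln and Angpt2 belong to the rule, but their receptor genes were lower in sprouting cells. Aplnr was at 199, 242, 166 and 73.2 CPM in sprouting cells of the anti-PD-1, anti-LIF, combo and control libraries, against 404, 412, 297 and 173 CPM in the other cells (log2 fold change -0.92, SE 0.14, edgeR adjusted p = 0.00043, lower in 4 of 4 libraries). Tek, the receptor of the angiopoietins, was at 213, 166, 204 and 132 CPM against 331, 326, 305 and 259 (-0.78, SE 0.14, edgeR adjusted p = 0.0016), without overlap. The other 4 of 6 genes did not pass, and against cells of neither kind alone neither receptor was called. In the VEGF axis none of 6 genes passed in edgeR, with a median of -0.04; Flt1, the decoy receptor of VEGF, had a log2 fold change of -0.04 (SE 0.14) and Nrp2 -0.54 (SE 0.16).

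Proliferation genes were 5 higher of 21 and none lower, with a median of 0.41. Ube2c was at 168, 123, 78.8 and 58.6 CPM in sprouting cells of the anti-PD-1, anti-LIF, combo and control libraries, against 44.7, 54.0, 35.2 and 19.6 CPM in the others. Ccna2 (1.30, SE 0.25), Cenpf (1.16, SE 0.30), Cdk1 (1.12, SE 0.24) and Mki67 (0.85, SE 0.21) were the others. The count was 3 without anti-PD-1 or without anti-LIF, 1 without combo, and 0 of the 7 testable genes after thinning to 1000 UMIs; DESeq2 called 1. Cells with at least 2 UMIs of 8 mitosis genes made up 11.9% [5.30, 22.2] of members in anti-PD-1, 14.5% [9.40, 20.9] in anti-LIF, 22.4% [16.5, 29.3] in combo and 11.1% [3.71, 24.1] in control, against 15.0%, 9.01%, 6.53% and 12.4% of other blood endothelial cells. After thinning the shares were 8.0%, 10.6%, 10.1% and 7.5% of members against 6.47%, 7.60%, 3.80% and 1.94% of the others. Combo held the widest gap before thinning. The median depth there was 2751.5 UMIs in sprouting cells, against 2829 in venous and activated cells and 1447 in cells of neither kind.

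Genes of quiet capillaries were lower. Of 13 tested, 7 were lower and none higher, with a median of -0.98; over all genes 3.28% were lower. Fabp4 was at 2956, 4944, 3317 and 649 CPM in sprouting cells of the anti-PD-1, anti-LIF, combo and control libraries, against 7776, 10568, 9328 and 2037 CPM in the others (log2 fold change -1.42, SE 0.10, edgeR adjusted p = 1e-07). It was lower in every library, and the classes overlapped because its level differed between libraries. The fatty acid transporter Cd36 (-1.11, SE 0.18), lipoprotein lipase Lpl (-1.63, SE 0.23), carbonic anhydrase Car4 (-1.35, SE 0.24), Fabp5 (-0.98, SE 0.17), the glycerol channel Aqp7 (-1.46, SE 0.34) and the inhibitor Timp4 (-1.64, SE 0.31) were lower too. Gpihbp1, the capillary anchor of lipoprotein lipase, stood at a log2 fold change of 0.48 (SE 0.18) and did not pass. Without combo 4 of the list were called lower, and with no replicate block none was called. Against venous and activated cells alone 2 of 9 were higher and 5 lower (median -0.75). Against cells of neither kind alone 7 of 12 were lower and none higher (median -1.19).

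Venous and leukocyte adhesion genes outside the rule were lower, but mainly against the venous and activated cells. Of 10 venous genes 4 were lower and none higher (median -0.79), and of 11 adhesion and chemokine genes 5 were lower (median -0.97). Icam1, an adhesion molecule for leukocytes that stands in both lists, was at 270, 164, 195 and 308 CPM in sprouting cells of the anti-PD-1, anti-LIF, combo and control libraries, against 470, 421, 510 and 444 CPM in the others (log2 fold change -1.07, SE 0.15, edgeR adjusted p = 0.0003). Cxcl10, a chemokine for T cells, was at 368, 879, 898 and 1074 CPM against 1523, 2162, 1326 and 2710 (-1.29, SE 0.17, edgeR adjusted p = 0.00016). Lrg1 (-0.99, SE 0.15), Vcam1 (-0.98, SE 0.21), Jam2 (-0.97, SE 0.14) and Ccl2 (-1.20, SE 0.28) were lower as well, and Vwf (0.15, SE 0.17) and Cxcl9 (-0.06, SE 0.18) did not pass. Against cells of neither kind alone, no venous gene was lower and 1 was higher, and 1 adhesion gene was lower. Without anti-PD-1, or without anti-LIF, 3 adhesion genes were lower.

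The receptor chain Il6st, which LIF shares with the interleukin 6 family, was lower in sprouting cells. It was at 239, 370, 345 and 308 CPM in the anti-PD-1, anti-LIF, combo and control libraries, against 560, 631, 597 and 487 CPM in other blood endothelial cells (log2 fold change -0.87, SE 0.13, edgeR adjusted p = 0.00059). In the list of STAT3 targets and LIF receptor genes 5 of 13 were lower and none higher, with a median of -0.53: Il6st, the STAT3 target Socs3 (-0.66, SE 0.15), Il6 (-0.97, SE 0.23), Osmr (-0.56, SE 0.15) and Cebpd (-0.53, SE 0.15). The LIF receptor Lifr (-0.78, SE 0.25) and Stat3 itself (-0.31, SE 0.13) did not pass. Without anti-PD-1 2 were lower, without anti-LIF or without combo 1, and without control 8. None was called against cells of neither kind alone, where the log2 fold change of Il6st was -0.0036 (edgeR adjusted p = 1), so the difference lay against the venous and activated cells.

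The genes with the lowest fold changes were of mixed kinds, all at low levels. Cmah, the enzyme that makes the sialic acid Neu5Gc, was at 22.2, 10.8, 8.75 and 4.88 CPM in sprouting cells of the anti-PD-1, anti-LIF, combo and control libraries, against 145, 93.5, 90.9 and 58.9 CPM in the others (log2 fold change -3.14, SE 0.26, edgeR adjusted p = 4.98e-07). Rgs1, a brake on G protein signalling, was at 8.86, 4.32, 2.50 and 9.76 CPM against 84.0, 54.8, 21.8 and 51.0 (-3.14, SE 0.36, edgeR adjusted p = 3.26e-05). Hdc, which makes histamine, had no UMI in sprouting cells of anti-PD-1 and anti-LIF and 3 UMIs each in combo and control, against 94.8, 34.2, 38.8 and 23.6 CPM in the others. A count of 3 UMIs is worth 13.3 CPM in anti-PD-1, 6.48 in anti-LIF, 3.75 in combo and 14.6 in control sprouting cells, so the level of Hdc there was at or under that limit. Igfbp5 (-2.71, SE 0.36), the receptor kinase Ret (-2.57, SE 0.38), the oxygenase Fmo2 (-2.33, SE 0.26), Ctnnal1 (-2.23, SE 0.34) and the inhibitory Fc receptor Fcgr2b (-2.19, SE 0.30) were the other 5. Ret lost its call without combo (edgeR adjusted p = 0.0508). Against cells of neither kind alone, Cmah, Hdc, Igfbp5, Ret and Ctnnal1 could not be tested. Rgs1, Fmo2 and Fcgr2b were lower there too, by log2 fold changes of -3.06, -2.54 and -2.62.

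Macrophage RNA differed between the 2 classes and between libraries. Lyz2, a macrophage lysozyme gene, was at 164, 130, 154 and 9.76 CPM in sprouting cells of the anti-PD-1, anti-LIF, combo and control libraries, against 740, 529, 444 and 21.6 CPM in the others (log2 fold change -1.86, SE 0.16, edgeR adjusted p = 9.8e-07), and C1qb was lower by -1.15 (SE 0.18). The 4 macrophage markers together came to 310, 240, 268 and 24.4 CPM in sprouting cells, with C1qa at 0 in control and Csf1r at 0 in anti-LIF, and to 1160, 741, 727 and 29.4 CPM in the other blood endothelial cells. Their part in the genes called lower was not tested directly. With cells that held 2 or more UMIs of any other class left out of both classes, 41 genes were higher and 47 lower of 2083 tested.

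The remaining lists held fewer called genes. Of 20 pan-endothelial genes Cd93 was higher (0.43, SE 0.12) and Tek lower. Arterial genes split, with Hey1 and Sat1 (0.90, SE 0.17) higher and Sema3g (-0.71, SE 0.17) and Fbln5 (-1.26, SE 0.17) lower of 10, and the split turned with the cells compared. Against venous and activated cells alone 8 were higher and 1 lower (median 1.03), and against cells of neither kind alone 1 and 2 (median -0.20). The log2 fold change of Sema3g was 2.56 against the venous and activated cells and -1.51 against cells of neither kind. Its call was lost without anti-PD-1, without anti-LIF or without combo, that of Hey1 without anti-PD-1, combo or control, and that of Sat1 without anti-PD-1. Fbln5 kept its call without any 1 library. Of 13 junction genes the gap junction gene Gja1 was higher (0.55, SE 0.13) and Jam2 and Cavin2 (-0.88, SE 0.14) lower. In BMP and TGF-beta signalling 1 of 14 was lower, Id2 (-0.60, SE 0.14). Among 18 endothelial transcription factors and their targets Thbd, the anticoagulant receptor thrombomodulin, was lower (-0.74, SE 0.13). Of 20 hypoxia and glycolysis genes Pkm was higher (0.52, SE 0.13), with a list median of 0.17. In the interferon lists 2 of 30 MHC class I and interferon gamma genes (Irf1 and Irgm1), 3 of 15 type I interferon genes (Ifit1, Ifit3 and Ifi27l2a) and 2 of 5 MHC class II genes (H2-Aa and H2-Eb1) were lower and none higher. Ifit1 was lower by -1.33 (SE 0.16, edgeR adjusted p = 7e-05) and kept its call without any 1 library. Over all genes 3.28% were lower. The class I list had no call without anti-PD-1, without anti-LIF or without combo, and the class II list none without anti-PD-1 or without combo. Ifit3 lost its call in all 4 fits that left out 1 library, and Ifi27l2a (-1.41, SE 0.31) in 3 of them, all but the fit without control. Of 18 genes that dissociation of tissue is known to induce, 4 were lower (Egr1, Ier3, Zfp36 and Btg2), with a median of -0.32, and 1 was without anti-PD-1. Cd93, Id2 and Pkm lost the call without anti-PD-1, without anti-LIF or without combo, and Gja1 without anti-PD-1 or combo.

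How frequent the sprouting cells were under each treatment depended on what they were counted against. As a share of all kept cells they made up 0.466% [0.361, 0.591] with anti-PD-1, 1.13% [0.966, 1.32] with anti-LIF and 1.06% [0.910, 1.23] with combo, against 0.241% [0.176, 0.323] in control. The ratios to control were 1.93 [1.30, 2.88] with anti-PD-1, 4.70 [3.36, 6.70] with anti-LIF and 4.40 [3.15, 6.24] with combo. All blood endothelial cells together made up 2.13% in anti-PD-1, 5.73% in anti-LIF, 6.10% in combo and 0.933% in control. As a share of blood endothelial cells the sprouting cells were instead lower in each treated library than in control, at 21.8% [17.3, 26.9] with anti-PD-1, 19.8% [17.1, 22.7] with anti-LIF and 17.4% [15.1, 19.9] with combo, against 25.9% [19.5, 33.0] in control. The log2 ratios to control were -0.24 [-0.81, 0.33] with anti-PD-1, -0.39 [-0.87, 0.13] with anti-LIF and -0.57 [-1.05, -0.07] with combo, and only the last interval lay below 0. After thinning each cell to 1000 UMIs the shares were 14.5%, 16.3% and 13.6% in the treated libraries and 22.7% in control. With at least 2 sprouting UMIs asked of a member, the share of kept cells in anti-PD-1 was at control's, with a log2 ratio of 0.029. With cells that held UMIs of other classes left out, the log2 ratios of the share of kept cells were 0.26 with anti-PD-1, 1.67 with anti-LIF and 0.34 with combo. All 3 ratios share the control library, each library is 1 preparation, and a treatment cannot be told apart from its library.

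**Figure D3:**
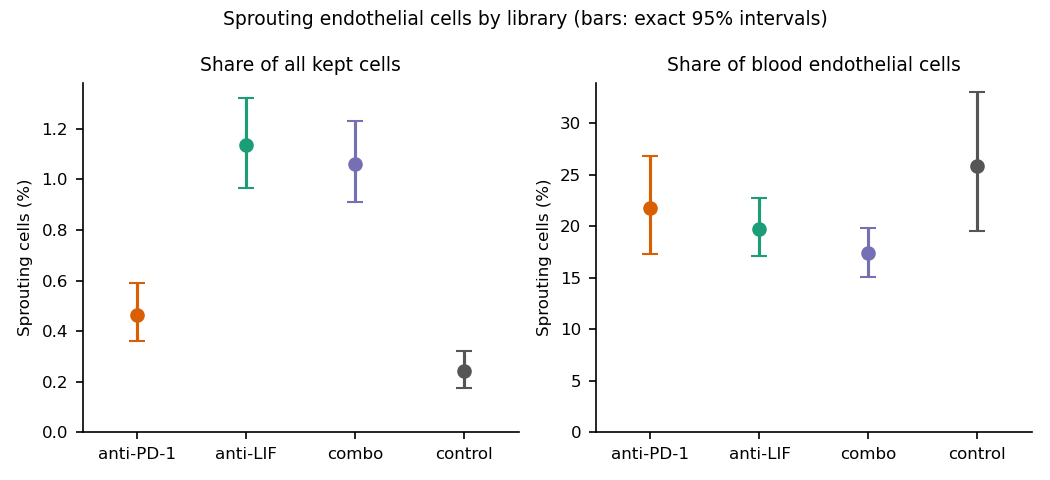
Sprouting cells as a percentage of all kept cells (left) and of blood endothelial cells (right) in each library; points are shares and bars exact 95% intervals for counting error. Anti-LIF and combo stand at 1.13% and 1.06% of kept cells, above control at 0.241%, while control stands highest, at 25.9%, of blood endothelial cells.

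Within the sprouting cells, gene levels of each treated library were set against control. A gene is called past the fold where its level differed at least 2-fold among genes with at least 30 UMIs in the 2 libraries together. In anti-PD-1 80 of 2380 genes (3.36%) were past the fold higher and 91 (3.82%) lower, in anti-LIF 210 (6.05%) and 122 (3.52%) of 3470, and in combo 360 (7.5%) and 172 (3.59%) of 4797. In either direction these were 7.18%, 9.57% and 11.1% of the genes. The median log2 ratio of all genes was 0.02 with anti-PD-1, 0.01 with anti-LIF and 0.03 with combo.

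RNA of other cell classes differed between the libraries in these same cells. Fibroblast markers, 4 genes, came to 4777, 1908 and 1423 CPM in sprouting cells with anti-PD-1, anti-LIF and combo, against 493 CPM in control, where Lum was at 0. At least 1 UMI of them was present in 50.7%, 62.3% and 78.2% of the treated members and in 33.3% of the control members. Pericyte markers, 6 genes, came to 421, 445 and 1407 CPM, against 1084 CPM in control, with Cspg4 at 0 in anti-PD-1. Macrophage markers were at 310, 240 and 268 CPM, against 24.4 in control. Neutrophil markers were at 75.3, 13 and 20.01 CPM, against 9.76 in control, and keratin genes of cancer cells at 93.1, 158 and 274 CPM, against 63.5 in control. B cell, muscle and red cell markers stayed at or under 8.86 CPM, apart from red cell markers at 79.8 CPM in anti-PD-1. The part of this RNA in the ratios that follow was not tested. For some of the genes below, values with the cells that carry it left out are given.

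MHC class I and interferon gamma genes were lower than control in all 3 treated libraries. In anti-PD-1 25 of 25 measured genes were below control and 10 were past the fold lower (median log2 ratio -0.86). In anti-LIF 25 of 27 were below and 3 past the fold (median -0.56), and in combo 28 of 29 were below and 8 past the fold (median -0.87). The class I heavy chain gene H2-K1 was at 2805 CPM with anti-PD-1, 3751 with anti-LIF and 2650 with combo in sprouting cells, against 5703 CPM in control. Its log2 ratios to control were -1.02 [-1.17, -0.88], -0.60 [-0.71, -0.50] and -1.11 [-1.21, -1.0]. B2m, the light chain of class I, was at 7422, 9324 and 6674 CPM in these libraries against 13119 in control. Cd274, which encodes PD-L1, the ligand of PD-1, was at 57.6, 69.1 and 75.0 CPM, against 210 CPM in control, with log2 ratios of -1.83 [-2.88, -0.94], -1.60 [-2.31, -0.91] and -1.49 [-2.07, -0.88]. The share of sprouting cells with a Cd274 UMI was 16.4% with anti-PD-1, 13.8% with anti-LIF and 18.4% with combo, against 33.3% in control. Tap1, the peptide transporter of class I loading, was at 182, 248 and 175 CPM, against 508 in control. These 4 genes lay below control in each treated library under all 5 alternative treatments of the cells. For B2m in anti-LIF the difference nearly vanished in 1 of them. Its log2 ratio there was -0.49, and -0.05 once cells with UMIs of other classes were left out. The guanylate binding protein Gbp2 had log2 ratios of -1.95 with anti-PD-1, -0.86 with anti-LIF and -1.20 with combo, but in anti-LIF its ratio was 0.06 once cells with UMIs of other classes were left out. Near-identical copies of class I genes can share reads, and how the authors' counting split them is not given in the sources used here.

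The same list was also below control in other cells. It had medians of -0.36, -0.23 and -0.52 in other blood endothelial cells with anti-PD-1, anti-LIF and combo, and of -0.58, -0.90 and -1.07 in cells outside the endothelium. MHC class II genes, which present antigen to CD4 T cells, were lower in sprouting cells, with medians of -1.23, -1.03 and -1.29 over 4 measured genes. In other blood endothelial cells their medians were 0.80, -0.52 and -0.35, and outside the endothelium 0.76, 0.82 and 0.72. The invariant chain Cd74 was at 191 CPM with anti-PD-1, 259 with anti-LIF and 180 with combo in sprouting cells, against 454 CPM in control. T cell markers were also lower in the treated sprouting cells, at 17.7 CPM with anti-PD-1, 8.64 with anti-LIF and 2.50 with combo, against 103 CPM in control, over 3 genes of which Cd3e was at 0 in anti-PD-1 and Cd3d at 0 in anti-LIF and combo. Their part in the class I and class II levels was not tested. Type I interferon genes had medians of -0.27, 0.03 and -0.18.

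Notch genes were also lower than control in the treated sprouting cells. None of 7 measured genes was above control in anti-PD-1 (median -0.48), none of 8 in anti-LIF (-0.65) and 2 of 11 in combo (-0.62), while the medians in other blood endothelial cells were 0.29, 0.14 and 0.27. Dll4 was at 465 CPM with anti-PD-1, 413 with anti-LIF and 323 with combo, against 835 CPM in control. Its log2 ratios were -0.84 [-1.21, -0.48], -1.02 [-1.32, -0.71] and -1.37 [-1.66, -1.08], and 53.7%, 48.4% and 52.9% of treated members held a Dll4 UMI against 73.3% of control members. In anti-PD-1 the ratio was 0.14 with cells that held UMIs of other classes left out. Hey1 had log2 ratios of -0.48 [-1.11, 0.14], -1.41 [-2.03, -0.81] and -0.89 [-1.37, -0.38]. Notch4 had -0.05 [-0.51, 0.41], -0.51 [-0.93, -0.08] and -0.46 [-0.83, -0.06], and with those cells left out it was at 0.36 in anti-PD-1. The mix of members moved with these levels: control held 46.7% members with Esm1 alone, the set in which Dll4 was highest, and the treated libraries 25.2% to 31.3%. Its part in the Notch levels was not tested.

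Other genes of sprouting cells did not move as 1 group. The tip and sprouting list had medians of -0.05 with anti-PD-1, -0.01 with anti-LIF and -0.29 with combo, where 5 of 28 genes were above control. Igfbp3 was at 1777 CPM with anti-PD-1, 1255 with anti-LIF and 1023 with combo, against 4121 CPM in control, with log2 ratios of -1.21 [-1.39, -1.04], -1.71 [-1.87, -1.56] and -2.01 [-2.15, -1.87]. It was lower in other blood endothelial cells too, at 760, 440 and 432 CPM against 1552 in control. Cxcr4 was at 155, 210 and 179 CPM against 420 in control, while its ligand Cxcl12 was at 962, 560 and 708 CPM against 347. Prnd ran the other way from Igfbp3, at 257 CPM with anti-PD-1, 521 with anti-LIF and 348 with combo, against 142 CPM in control (log2 ratios 0.85 [0.19, 1.56], 1.86 [1.32, 2.49] and 1.27 [0.74, 1.90]). Its share of cells with a UMI was 23.9% with anti-PD-1, 37.1% with anti-LIF and 32.2% with combo, against 33.3% in control, so levels and shares had different orders. Kdr had log2 ratios of -0.10 [-0.43, 0.22], -0.37 [-0.66, -0.08] and -0.26 [-0.51, 0.01]. Over these and the 5 alternative treatments of the cells they ran from -0.49 to 0.21, -0.73 to -0.13 and -0.71 to -0.11. The lowest values of anti-LIF and combo were those of thinned cells. Flt1 was lower, at -0.32 [-0.55, -0.08], -0.89 [-1.10, -0.68] and -0.82 [-1.01, -0.63]. In the VEGF list the medians were -0.12, -0.63 and -0.54. Basement membrane genes had medians of -0.03, -0.12 and -0.19, and Col4a1 log2 ratios of 0.03, 0.06 and -0.18, the anti-LIF value at -0.046 with cells of other-class UMIs left out.

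**Figure D4:**
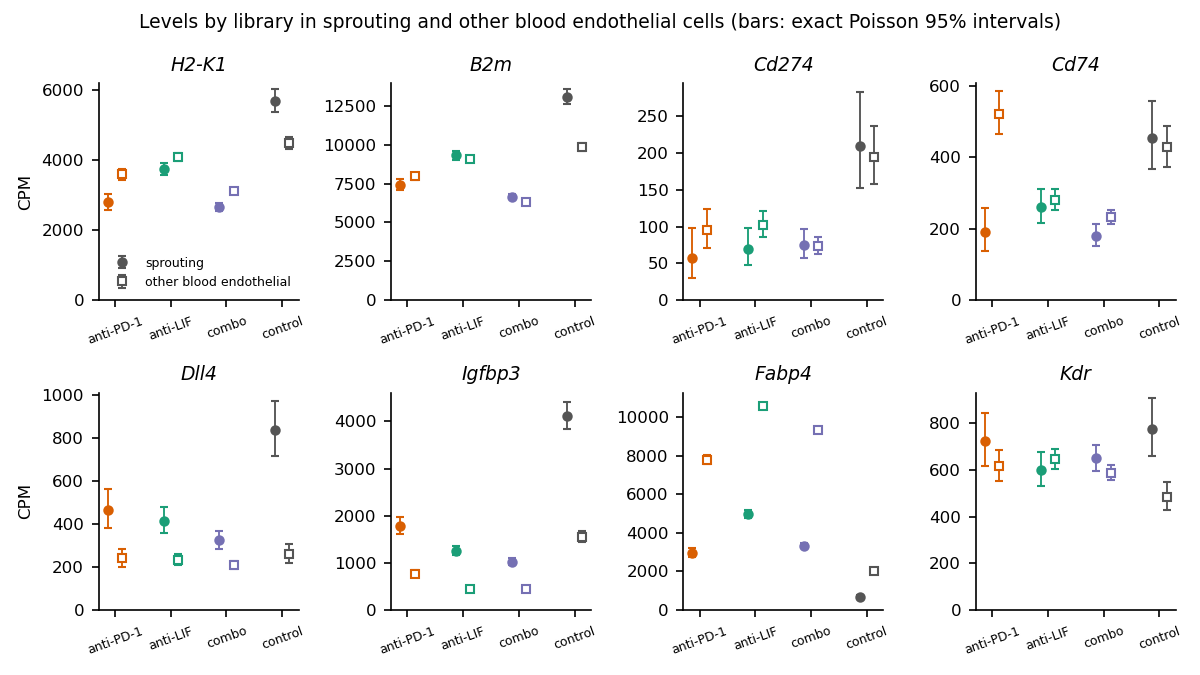
Levels of 8 genes (vertical axes, CPM) in sprouting cells (filled circles) and other blood endothelial cells (open squares) of each library, with exact Poisson 95% intervals. H2-K1 and Igfbp3 in sprouting cells stand lower in each treated library than in control, where they are at 5703 and 4121 CPM, and Fabp4 stands higher in each treated library than in control, at 649 CPM.

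Capillary genes were higher in the treated sprouting cells. The list median was 1.20 with anti-PD-1, 0.70 with anti-LIF and 1.07 with combo, with 4 of 8, 4 of 9 and 6 of 10 measured genes past the fold higher. Fabp4 was at 2956 CPM with anti-PD-1, 4944 with anti-LIF and 3317 with combo, against 649 CPM in control. Its log2 ratios were 2.18 [1.92, 2.47], 2.92 [2.68, 3.19] and 2.35 [2.10, 2.62], and 79.1%, 67.3% and 82.8% of treated members held a UMI of it against 40.0% of control members. Cd36 had log2 ratios of 0.93 [0.47, 1.41], 1.39 [1.00, 1.83] and 1.36 [0.98, 1.78]. That of anti-PD-1 became -0.04 with cells that held UMIs of other classes left out. In other blood endothelial cells the list medians were 1.66, 2.21 and 1.90, and in cells outside the endothelium 1.30, 2.88 and 2.80. Fabp4 outside the endothelium was at 33.7, 87.8 and 60.8 CPM against 7.59 in control. Aplnr was at 199, 242 and 166 CPM in treated sprouting cells, against 73.2 in control, and its anti-LIF log2 ratio of 1.68 became -0.32 with cells that held UMIs of other classes left out.

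**Figure D5:**
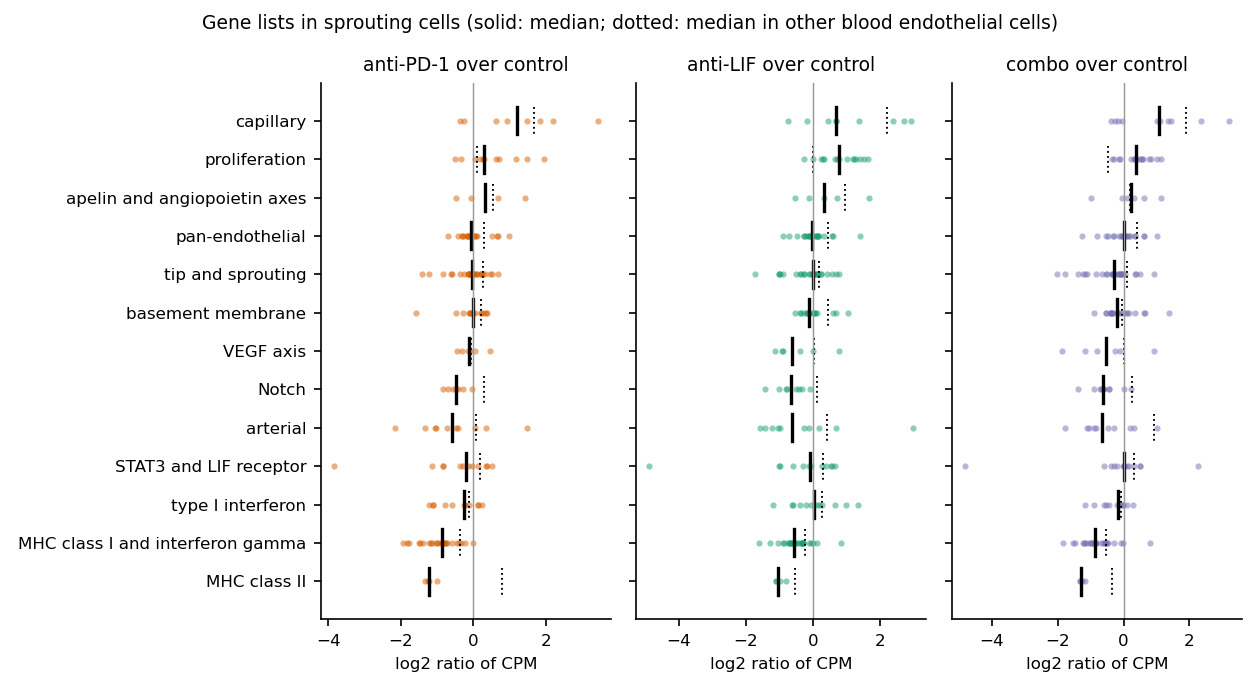
Log2 ratios of CPM in sprouting cells of each treated library over control (horizontal axis) for the measured genes of 13 lists; each point is a gene, the solid mark is the list's median and the dotted mark its median in other blood endothelial cells. The MHC class I list has its median at -0.86, -0.56 and -0.87 and the capillary list at 1.20, 0.70 and 1.07 with anti-PD-1, anti-LIF and combo.

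Proliferation genes had medians of 0.28 with anti-PD-1, 0.79 with anti-LIF and 0.38 with combo, with 3 of 11, 7 of 15 and 2 of 17 past the fold higher. Mki67, a protein of cycling cells, was at 102, 132 and 78.8 CPM against 43.9 in control, from 9 control UMIs. STAT3 and LIF receptor genes had medians of -0.21, -0.08 and 0.02. Socs3, the feedback inhibitor that STAT3 induces, was at 789 CPM in anti-LIF and 802 in combo, against 815 CPM in control (log2 ratios -0.05 [-0.32, 0.23] and -0.03 [-0.27, 0.23]), and at 368 CPM in anti-PD-1 (-1.14 [-1.55, -0.76]). With cells of other-class UMIs left out the anti-LIF ratio was 0.61 and the combo ratio 0.074. Lif itself had 2, 2 and 4 UMIs with anti-PD-1, anti-LIF and combo in sprouting cells, against 32 in control, of which 27 came from 1 cell. Arterial genes had medians of -0.60, -0.63 and -0.66, venous genes -0.27, -0.74 and -0.66, leukocyte adhesion genes -0.52, -0.74 and -0.26, and guidance genes -0.30, -0.18 and -0.55. The medians of the pan-endothelial (-0.06, -0.03 and 0.02), BMP and TGF-beta (-0.24, -0.08 and -0.12), junction (0.10, 0.03 and 0.08), transcription factor (-0.09, 0.01 and -0.03), hypoxia (0.00, -0.08 and -0.16), proteolysis (-0.22, -0.33 and -0.42), apelin and angiopoietin (0.31, 0.32 and 0.21) and dissociation (-0.35, -0.11 and -0.05) lists lay between -0.42 and 0.32.

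Single genes were named by size only where 10 cells held no more than 50% of their UMIs in the higher library, which left out genes with larger ratios, Fabp4 in anti-PD-1 and anti-LIF among them. Of the genes left, the highest in anti-PD-1 were Slc38a2, an amino acid transporter (log2 ratio 0.59 [0.19, 1.00]), Cox6a1 (0.56), the caveolar gene Cav1 (0.51), Gng11 (0.50), Cavin3 (0.48), the rule gene Cdh5 (0.45), Ctnnb1 (0.39) and Cfl1 (0.36). In anti-LIF the highest of the genes left was C1qtnf9, a C1q-like secreted protein, at 223 CPM against 29.3 in control (2.82 [1.75, 4.40]), followed by Trp53 (2.52), Rflnb (1.86), Tinagl1 (1.81), Fbln2 (1.65), Selenop (1.57), Egr1 (1.47) and Cavin2 (1.43). In combo, below Bpifa2, Npr1, the receptor of atrial natriuretic peptide, was at 141 CPM against 19.5 in control (2.69 [1.46, 4.76]), followed by C1qtnf9 (2.42), Fabp4, Apoe (2.11), Trp53 (2.06), Prcp (1.96) and Selenop (1.93). Trp53, which encodes p53, was at 222, 210 and 153 CPM with anti-PD-1, anti-LIF and combo, against 34.2 CPM in control from 7 UMIs. Other blood endothelial cells had 156, 156 and 127 CPM of Trp53 in these libraries, against 100 in control. The gene that led the names of combo, Bpifa2, a salivary gland secretory gene, had 100 UMIs in 67 of 174 combo members (38.5%) and none in the other 3 libraries, at least 8.54-fold higher than control, taking 3 counts in control. In combo cells outside the endothelium it was at 6119 CPM, and its part in the combo profile was not tested. The lower genes that the naming rule left were H2-K1 in each library and Notch4 in anti-LIF and combo. For lower genes the higher library is control, where the 10 deepest members held 52.4% of all UMIs. Few lower genes could therefore stay within 50%, and this short list is no measure of how many genes were lower.

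Combo was also set against each antibody alone. Over anti-LIF 127 (2.27%) were past the fold higher and 108 (1.93%) lower of 5590, 4.2% in either direction. Over anti-PD-1 210 (4.29%) were higher and 105 (2.14%) lower of 4900, 6.43% in either direction, and the libraries differed in depth. Ltbp4, a binding protein of latent TGF-beta, was at 209 CPM in combo against 733 CPM in anti-LIF (log2 ratio -1.81 [-2.09, -1.54]). The chaperonin subunit Cct7 (-2.02), the phosphatase Ppp1ca (-1.84) and the dynein chain Dync1h1 (-1.26) were lower than in anti-LIF as well, and Atp5e (1.07), Peg13 (1.03) and Brk1 (1.02) were higher. Over anti-PD-1 the basement membrane proteoglycan Hspg2 was at 166 CPM in combo against 48.7 CPM (1.71 [0.88, 2.81]), and Fbln5 (1.34) and Utrn (1.17) were higher. Tle5 (-0.71), Mpzl1 (-0.71), Lgals9 (-0.63) and Gng11 (-0.58) were lower. The tip and sprouting list had a median of -0.20 over anti-LIF and -0.24 over anti-PD-1, and the MHC class I list -0.32 and -0.01.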

How the data were processed

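The deposited matrices hold raw counts, whole UMIs of each gene in each barcode as the authors made them, with no normalization. Beside them the authors deposited the list of barcodes and the Ensembl ID and symbol of 32285 genes. Per the labels' protocols, tumours were dissociated and 3′ libraries made with the SeekOne MM kit. Removal of debris, dead cells and viscous DNA was optional and the sequencing platform was 1 of 2, and which library had which is not given in the sources used here. The submitters' processing notes name mm10 and Seurat 4.0.3 without a role. The aligner, counter, strand setting and cell calling are not given in the sources used here.

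The matrices held 15191 barcodes with 67503066 UMIs in anti-PD-1, 15046 with 57720774 in anti-LIF, 17472 with 94984486 in combo and 20393 with 111164731 in control. The lowest count of a barcode was 500 UMIs, and 623 in control. No doublet caller was run and doublets remain. T cells, used as a background, held Ptprc and Cd3e and none of the 4 endothelial genes.

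For the class comparison the UMIs of a class were added up within each library and the 8 sums were tested with edgeR 4.0.16 (R 4.3.3) after TMM scaling and filterByExpr, with the library as a block because both classes come from the same library. P-values were adjusted over all genes tested by Benjamini-Hochberg. The procedure was tested on simulated counts. Between libraries, CPM have exact Poisson intervals, shares have Clopper-Pearson intervals, and log2 ratios, with 0.5 counts added, have exact conditional intervals, all at 95% and for counting error only. Levels under 3 counts are at the limit of detection. Computation used Python 3.11.15, numpy 2.4.6, scipy 1.17.1 and pandas 2.3.3.

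The members and the gene lists were chosen with earlier results of these data known. Cd99, Mx1, Mx2 and Aldoa of the lists had no entry under these symbols. Named by size were the 12 genes with the highest and the 8 with the lowest log2 fold change of the class comparison, among those called, alike in direction in 4 of 4 libraries and with at least 200 UMIs. Between libraries these were the 8 highest and 8 lowest ratios over control and 4 and 4 of combo over each antibody alone. They needed at least 100 UMIs and an interval without 0, and no more than 50% of the UMIs of the higher library in 10 cells. Predicted gene models, mitochondrial and ribosomal protein genes and genes of the rule were left out of the class names. Genes of the lists are named beside them.

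Alternatives were stricter gates for tip, endothelial, mitochondrial and gene counts, Flt4 left out of the lymphatic gate, cells with UMIs of other classes left out, thinning to 1000 UMIs (50 members were deep enough in anti-PD-1, 123 in anti-LIF, 148 in combo and 40 in control), other UMI minimums, means over cells, DESeq2 1.42.0, no filter, no block, other comparison cells and each library left out. A tip gate of 2 UMIs in the class comparison and the removal of the cell with the most UMIs of a gene were chosen after seeing the data. Gene positions are from GENCODE M21 on GRCm38 and promoters from RefSeq on GRCm38.p6.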

Additional observations from a re-analysis of the deposited data

How the results depend on the processing

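Of the class comparison (101 genes higher, 214 lower), the counts of genes called higher and lower were 156 and 437 with no filter on low counts, 61 and 90 with DESeq2, 54 and 76 in thinned cells, 41 and 47 without cells that held UMIs of other classes, 197 and 315 against venous and activated cells, and 52 and 96 against cells of neither kind. Fewer genes could be tested in the last 4. With 1 library left out the counts ran from 45 to 174 and from 83 to 320. Both classes come from the same library, which is the pairing behind the block, and with no replicate block 20 were higher and 28 lower, 48 of the 315 genes, all 315 in the same direction. Of the 315, DESeq2 gave the same direction in 299 of 299 and called 151, thinning 199 of 200 and 104, and leaving out cells with other UMIs 174 of 175 and 68. The block changed the call of 8 of the 20 genes named by size, and no other alternative, among the genes it could test, ended the call of more than 3.

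The log2 ratio of the share of kept cells over control moved to 0.029 with anti-PD-1 when 2 sprouting UMIs were asked. It was 0.26 with anti-PD-1, 1.67 with anti-LIF and 0.34 with combo when cells with UMIs of other classes were left out, and 1.61 with anti-LIF and 1.59 with combo at a mitochondrial share of at most 10%. For the share of blood endothelial cells the ratio was -1.16 with anti-PD-1 at 2 sprouting UMIs and -1.40 with combo without cells of other UMIs. The percentage of genes past the fold moved with the UMI minimum. At 10 UMIs it was 9.25% higher and 6.96% lower with anti-PD-1, 11.8% and 6.08% with anti-LIF, and 11.6% and 6.65% with combo. At 100 UMIs the higher share was 1.38%, 3.07% and 3.62%. As a mean over cells it was 6.34%, 11.2% and 14.8% higher, with 5.50% lower in anti-LIF and 5.98% lower in combo. Without cells of other UMIs 5.38% were lower with anti-LIF and 3.2% higher with combo, and in thinned cells 5.53% were lower with combo. The causes were not tested.

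Of the list medians, leukocyte adhesion in anti-LIF over control turned to 0.24 without cells of other UMIs and to 0.24 in thinned cells. Guidance and integrins in combo over control turned to 0.056 at 100 UMIs, 0.046 without cells of other UMIs and 0.29 in thinned cells. Depth limits these results most in anti-PD-1 and control, where 67 and 45 members carry every ratio and a gene of 3 UMIs stands at 13.3 and 14.6 CPM.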
